A study of Mus musculus with 6 samples.

Results

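The transcripts of the adiponectin receptors and of the AMPK pathway downstream of them were measured in 6 mouse liver libraries. The set holds 10 genes of the 18444 in the deposited tables, each taken by its symbol. It comprises the receptors Adipor1 (gene ID 72674) and Adipor2 (68465), Cdh13 (12554), the adaptors Appl1 and Appl2, the AMPK catalytic subunits Prkaa1 and Prkaa2, the upstream kinase Stk11, Sirt1 and Ppara (19013). All 10 genes were found in all 6 libraries.

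The study asked whether JT003, a peptide agonist of both adiponectin receptors, relieves steatohepatitis and fibrosis. Liver RNA of male mice labelled C57BL/6 (C57BL/6J in the methods) was sequenced with 1 library per condition, and the labels name no transgene or deletion in any group. Their age is given as 6 to 8 weeks, read here as that at the start, since the diet alone ran for 16 weeks. The age at sampling is not stated and may differ between the models. In the diet model, SD mice had a control diet (labelled chow), HFD mice had a high-fat diet for 16 weeks, and HFD plus JT003 mice also had 0.5 mg/kg of the peptide daily for 4 weeks. In the CCl4 model, Corn oil mice had the vehicle, CCl4 mice had 20% CCl4 in oil at 5 ml/kg every 3 days for 6 weeks, and CCl4 plus JT003 mice also had the same daily dose of peptide for 3 weeks. The label of the HFD library is NASH. The methods describe a high-fat diet alone and a variant with a methionine and choline deficient diet in the last 4 weeks, and the labels do not say which was sequenced. Mice were fasted for 8 h before the livers were taken. Groups held 6 mice, and whether a library is 1 mouse or a pool of several is not stated. As a condition has 1 library, nothing here is checked by a replicate, no p-value is given and each comparison sets 2 libraries and not 2 conditions against each other.

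Adiponectin is a hormone of fat cells that acts on liver through AdipoR1 and AdipoR2, multi-pass membrane receptors that are close relatives. AdipoR1 is best known for signalling to the energy sensor AMPK and AdipoR2 for signalling to PPARα, the nuclear receptor that drives fatty acid oxidation in fasted liver. AMPK is switched on by phosphorylation, so a transcript level does not measure its activity, nor that of a receptor.

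The 250 bases upstream of the transcription start are given for both receptors and for Ppara, because these genes encode the targets of JT003 and the nuclear receptor of the AdipoR2 arm. They come from RefSeq on build GRCm38.p6, 5′ to 3′ on the strand of the gene. Capitals mark GC boxes, the letters GGGCGG on either strand, with overlapping matches merged. The windows are Adipor1 at chr1:134415128-134415377 on the plus strand, Adipor2 at chr6:119388735-119388984 on the minus strand and Ppara at chr15:85735526-85735775 on the plus strand.
Adipor1: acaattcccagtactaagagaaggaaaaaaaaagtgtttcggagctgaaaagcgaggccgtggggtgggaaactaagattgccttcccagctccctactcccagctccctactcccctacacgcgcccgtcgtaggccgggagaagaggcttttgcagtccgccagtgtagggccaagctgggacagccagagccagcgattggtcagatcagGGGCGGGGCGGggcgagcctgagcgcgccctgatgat
Adipor2: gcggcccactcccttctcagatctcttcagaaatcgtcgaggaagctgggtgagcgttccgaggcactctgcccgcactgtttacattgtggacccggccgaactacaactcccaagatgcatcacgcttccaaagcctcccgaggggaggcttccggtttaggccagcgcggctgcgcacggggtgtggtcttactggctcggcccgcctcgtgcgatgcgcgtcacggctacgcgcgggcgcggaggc
Ppara: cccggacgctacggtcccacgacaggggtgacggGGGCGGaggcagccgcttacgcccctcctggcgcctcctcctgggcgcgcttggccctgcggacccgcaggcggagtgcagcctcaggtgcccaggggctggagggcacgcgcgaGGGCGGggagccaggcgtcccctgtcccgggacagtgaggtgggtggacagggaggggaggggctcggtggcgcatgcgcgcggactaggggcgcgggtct
The Adipor1 window held 2 GC boxes that share a base, the Ppara window held 2, and the Adipor2 window held none, where 32.7% of all 32851 promoter windows held at least 1. RefSeq windows were matched for 8 of the 10 genes. In none of these 8 genes was there a direct repeat of AGGTCA with 1 base between (AGGTCANAGGTCA, the site type of PPAR), which 0.0335% of all windows held. The E-box CACGTG was present in the window of Sirt1 alone among them and in 6.02% of all windows, and CCAAT was present in a window of Adipor1 and of Stk11 and in 33.8% of all windows. These matches describe letters and not bound factors, and no value of the liver libraries bears on them.

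Each library held 19374236 to 20184557 rounded counts and listed 16083 to 16738 genes. Levels are given as scaled CPM, counts of a gene relative to a library size corrected with TMM factors of 0.876 to 1.11. A log2 ratio compares such levels between 2 libraries, and its 95% interval covers counting error only. All 6 hepatocyte markers were detected in each library, with summed levels of 81009 to 96976. The Corn oil library stood apart, with the summed level of 6 macrophage markers at 60.9 against 136 to 373 elsewhere. It also held 11 counts of Adipoq, the adiponectin gene itself, where the other libraries held 0 or 1. Of the other adipocyte markers, Plin1 had 6 counts and Retn had 5 in Corn oil, and at most 1 elsewhere. Cfd was not particular to Corn oil, with 454 counts in HFD, 166 in HFD plus JT003, 175 in Corn oil and at most 2 elsewhere. In whole liver, fewer cells of a type and less RNA per cell cannot be told apart.

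Per transcript length, Adipor2 was the leading receptor in every library. Its FPKM (counts relative to transcript length and library reads) was 165 in SD, 169 in HFD, 132 in HFD plus JT003, 102 in Corn oil, 127 in CCl4 and 99.9 with JT003 on CCl4. Adipor1 stood at 35.6, 31.7, 36.7, 33.2, 44.9 and 38.1 FPKM in the same order. Ppara had 35.1 FPKM in CCl4 to 83.0 in HFD plus JT003, second to Adipor2 in the diet model, and Stk11, which encodes the AMPK kinase LKB1, had 27.4 to 39.8. The rest of the pathway was expressed far lower. Prkaa2 had 4.31 to 10.8 FPKM, Appl2 had 4.17 to 6.79, and Prkaa1, Sirt1 and Appl1 had at most 3.54, 3.61 and 1.83. Cdh13, which encodes T-cadherin, a surface protein that binds adiponectin without signalling through AdipoR, was the lowest at 0.19 to 1.08 FPKM.

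**Figure D1:**
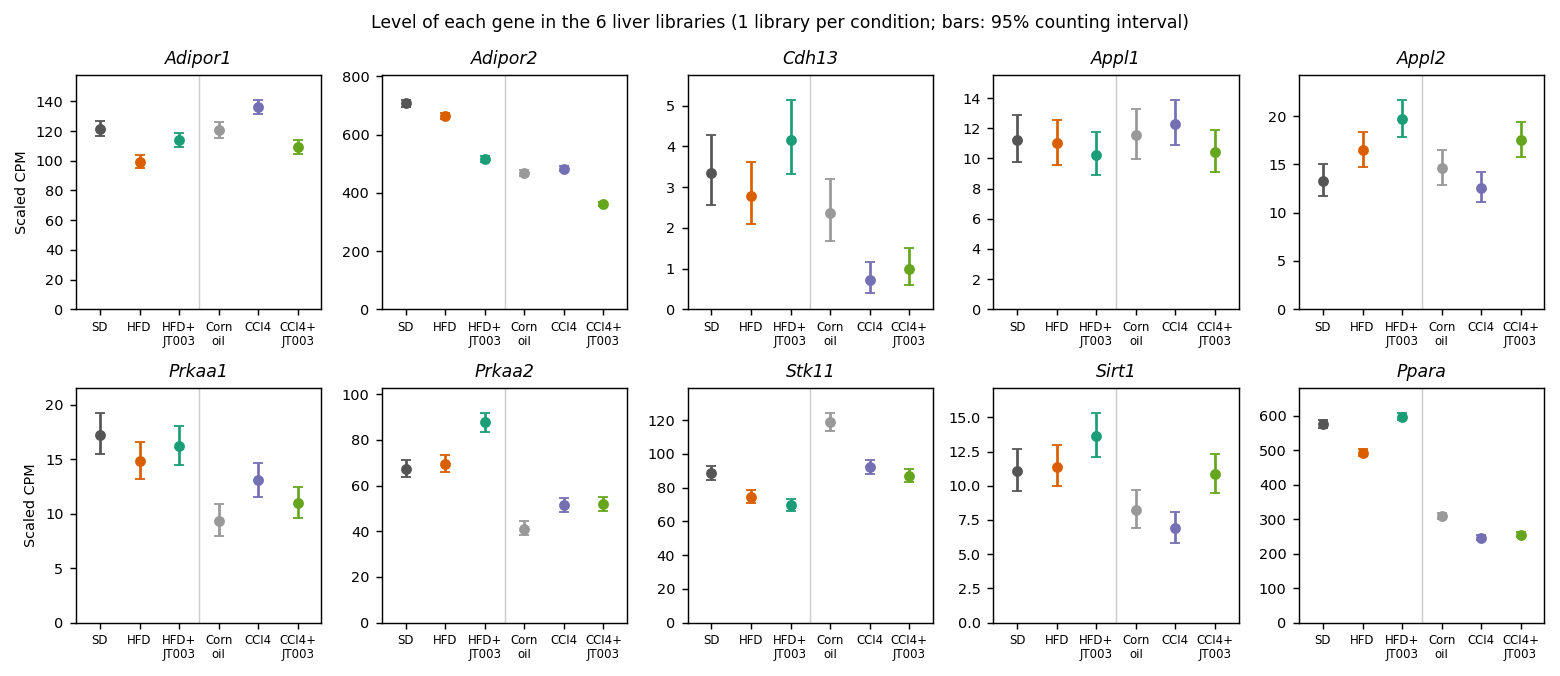
Level of each of the 10 genes (vertical axis, scaled CPM, from 0) in the 6 libraries, with 95% counting intervals as bars and a grey line between the diet and the CCl4 model. Adipor2 is highest in SD at 708 and lowest in CCl4 plus JT003 at 361, and Appl1 stays between 10.2 and 12.3 in all 6 libraries.

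The genes differed widely in the range of their levels over the 6 libraries. The highest level over the lowest was 1.20 for Appl1, an adaptor that binds both receptors, and 1.37 for Adipor1. These ranges lay at percentiles 1.53 and 11.3 of the 12092 genes ranked, whose median was 1.83. All neighbours in the order of the Appl1 levels lay within counting error of each other. The steadiness of Appl1 did not extend to further CCl4 reads from a pooled column, described after the single genes, which lay above the CCl4 library by a log2 ratio of 0.54 (0.34 to 0.75). At the other end, the range was 2.43 for Ppara (percentile 75.9) and 5.89 for Cdh13 (percentile 96.5).

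Adipor2 differed in the same direction with JT003 in both models, and Adipor1 did not. The Adipor2 level was 708 scaled CPM in SD, 665 in HFD, 515 in HFD plus JT003, 467 in Corn oil, 483 in CCl4 and 361 with JT003 on CCl4. The library with JT003 was thus the lowest of its model. The log2 ratio was -0.37 (95% interval -0.40 to -0.33) for HFD plus JT003 over HFD and -0.42 (-0.46 to -0.38) for CCl4 plus JT003 over CCl4, both short of 1.5-fold. Against the further CCl4 reads of the pooled column the latter ratio was 0.02 (-0.02 to 0.06). All neighbours in the order of the 6 Adipor2 levels were apart by more than counting error.

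The distance of the disease libraries from their controls was small in Adipor2 with TMM scaling. For CCl4 it depended on the scaling and on the reads used. The log2 ratio of Adipor2 was -0.09 (-0.13 to -0.06) for HFD over SD, which turned to 0.03 when libraries were scaled to total counts, and 0.05 (0.01 to 0.09) for CCl4 over Corn oil. With the further CCl4 reads in place of the CCl4 library it was -0.39 (-0.43 to -0.35) over Corn oil, as large as the ratios with JT003. In FPKM, without TMM factors, the CCl4 library lay further above Corn oil, at 127 against 102. Scaling to total counts shifted the median log2 ratio of all genes to 0.24 in this comparison. The distance between the 2 control libraries was larger than all of these, at -0.60 (-0.64 to -0.56) for Corn oil over SD. The controls differed in vehicle, diet, experiment and perhaps age, which cannot be told apart, so their distance is not a replicate spread.

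Adipor1 was 122 scaled CPM in SD, 99.5 in HFD, 114 in HFD plus JT003, 121 in Corn oil, 136 in CCl4 and 109 with JT003 on CCl4. The HFD library was the lowest and the CCl4 library the highest, and the 2 controls did not differ beyond counting error, with a log2 ratio of -0.01 (-0.10 to 0.07). Adipor1 was lower with HFD by a log2 ratio of -0.29 (-0.38 to -0.20) and higher with JT003 on HFD by 0.20 (0.11 to 0.28). In the CCl4 model the directions were the opposite, with 0.17 (0.09 to 0.26) for CCl4 over Corn oil and -0.32 (-0.40 to -0.24) for CCl4 plus JT003 over CCl4. With the further CCl4 reads the former was -0.03 (-0.11 to 0.04), so the higher level with CCl4 rests on the CCl4 library, and the latter was -0.11 (-0.18 to -0.04). In each model both ratios share the HFD or the CCl4 library, so their opposite signs are not independent.

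**Figure D2:**
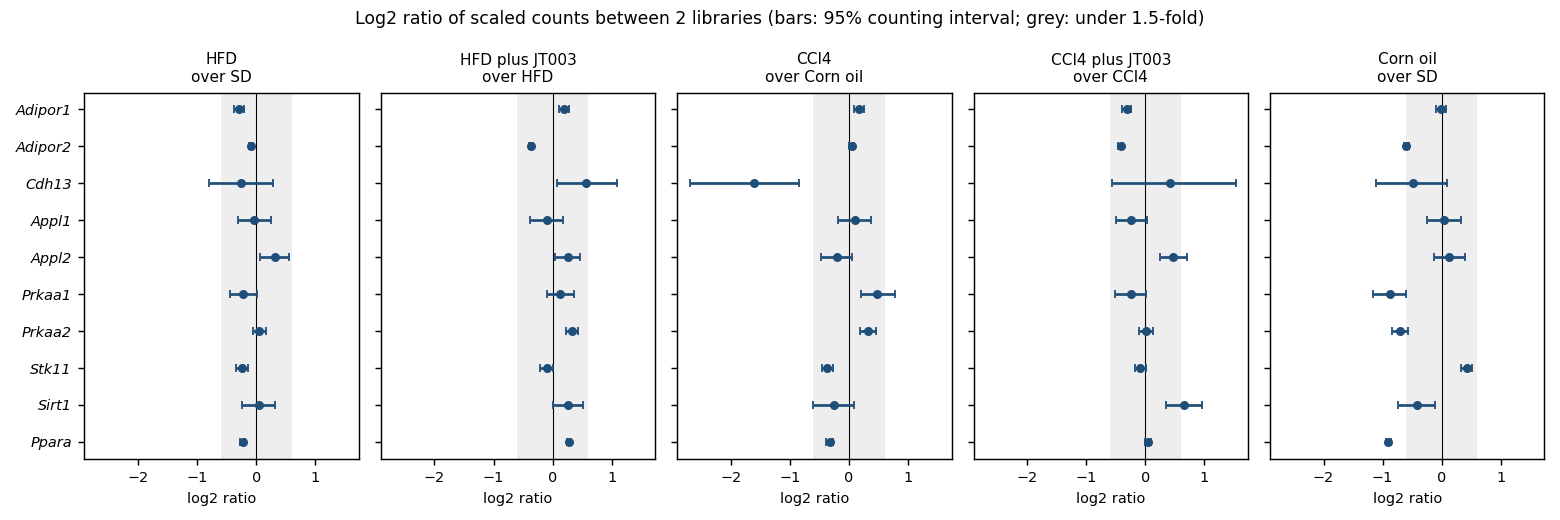
Log2 ratio of each gene between 2 libraries (horizontal axis) for 5 comparisons, with 95% counting intervals as bars and the range under 1.5-fold in grey. With HFD and with JT003 on HFD all 10 points lie within the grey range, and Corn oil over SD has 4 points beyond it.

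Of the 10 genes, 0 differed by at least 1.5-fold between HFD and SD, where 23.7% of all 13335 genes tested did. Between HFD plus JT003 and HFD the count was 0 as well, where 14.4% of 13453 genes did. The largest difference in the former was 0.31 (0.07 to 0.55) for Appl2 and in the latter 0.56 (0.08 to 1.09) for Cdh13. The median absolute log2 ratio of the set was 0.22 with HFD against 0.30 for all genes, and 0.25 with JT003 on HFD against 0.22. Intervals of 5 genes left out 0 with HFD and of 6 with JT003, while 50.7% and 40.7% of all genes had such intervals. HFD plus JT003 over SD had 0 genes past 1.5-fold as well, against 27.0% of all genes.

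In the CCl4 model 1 gene, Cdh13, was lower by at least 1.5-fold in CCl4 than in Corn oil, where 13.5% of all genes were lower by that much and 29.2% differed in either direction. With JT003 on CCl4, 1 gene, Sirt1, was higher by at least 1.5-fold, where 13.0% of all genes were higher and 24.2% differed in either direction. Intervals left out 0 for 7 genes with CCl4, against 55.4% of all genes, and for 4 genes with JT003, against 52.7%. Cdh13 was the gene past 1.5-fold between CCl4 plus JT003 and Corn oil, where 24.1% of all genes were. The median absolute log2 ratio of the set was 0.29 with CCl4 and 0.28 with JT003, against 0.34 and 0.30 for all genes.

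The control libraries held the largest distances for several of the genes. Corn oil was lower than SD by at least 1.5-fold in 4 genes, where 16.1% of all genes were lower and 30.7% differed in either direction. These were Adipor2, Prkaa1 (log2 ratio -0.88, -1.17 to -0.61), Prkaa2 (-0.71, -0.84 to -0.57) and Ppara (-0.90, -0.95 to -0.85). Stk11 was higher in Corn oil by 0.42 (0.33 to 0.52). A direction read in the CCl4 model against Corn oil therefore rests on a control that differs from SD. Against SD, the log2 ratio of CCl4 was -0.55 for Adipor2, -0.40 for Prkaa1, -0.39 for Prkaa2 and 0.06 for Stk11. Each was of the opposite sign to the ratio against Corn oil.

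The balance of the 2 receptors shifted toward Adipor1 in the JT003 library of the diet model. Adipor2 had 4.63 times the FPKM of Adipor1 in SD, 5.32 times in HFD and 3.60 times with JT003 on HFD. It had 3.07 times in Corn oil, 2.82 times in CCl4 and 2.62 times with JT003 on CCl4. Within a library this ratio does not depend on the library size used for scaling. The log2 ratio of Adipor1 to Adipor2 was 0.56 (0.47 to 0.66) higher in HFD plus JT003 than in HFD, and 0.11 (0.02 to 0.19) higher in CCl4 plus JT003 than in CCl4. The latter turned to -0.12 (-0.20 to -0.04) against the further CCl4 reads. The Corn oil library was 0.59 (0.50 to 0.69) above SD in the same ratio.

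The adaptors differed from each other with JT003. APPL1 carries the signal from the receptors to AMPK, and APPL2 is known to hold APPL1 back. Appl2 was 13.3 scaled CPM in SD, 16.5 in HFD, 19.7 in HFD plus JT003, 14.6 in Corn oil, 12.6 in CCl4 and 17.5 with JT003 on CCl4. It was highest in the 2 libraries with JT003. All neighbours in the order of the Appl2 levels lay within counting error of each other, so this order is not resolved. The log2 ratio with JT003 was 0.25 (0.04 to 0.47) in the diet model and 0.47 (0.24 to 0.71) in the CCl4 model, while that of Appl1 was -0.10 (-0.38 to 0.18) and -0.24 (-0.50 to 0.02). The FPKM of Appl2 over that of Appl1 was 2.80 in SD, 3.57 in HFD and 4.56 with JT003 on HFD, and 3.01 in Corn oil, 2.43 in CCl4 and 3.99 with JT003 on CCl4. The log2 ratio of Appl1 to Appl2 was 0.35 below that of HFD in HFD plus JT003 (difference -0.35, -0.70 to -0.01) and 0.72 below that of CCl4 in CCl4 plus JT003 (difference -0.72, -1.06 to -0.37). Between HFD and SD the difference was as large as the former, at -0.35 (-0.71 to 0.01).

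**Figure D3:**
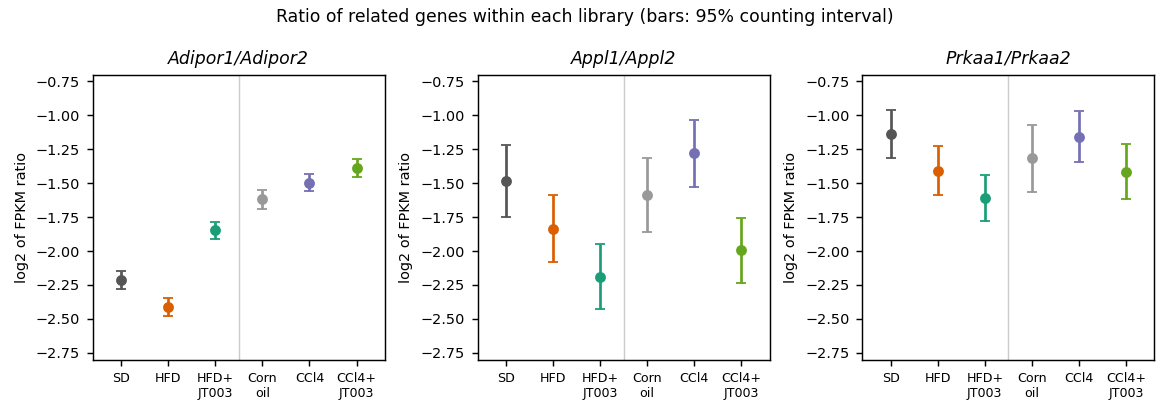
Log2 of the FPKM ratio of related genes within each of the 6 libraries (vertical axis), with 95% counting intervals as bars. Adipor1 over Adipor2 lies lowest in HFD at -2.41 and highest in CCl4 plus JT003 at -1.39, and Appl1 over Appl2 lies lowest in HFD plus JT003 at -2.19.

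The AMPK catalytic subunits were dominated by Prkaa2, the α2 form, at 2.20 to 3.05 times the FPKM of Prkaa1, the α1 form. Prkaa2 was 67.3 scaled CPM in SD, 69.6 in HFD, 87.6 in HFD plus JT003, 41.2 in Corn oil, 51.4 in CCl4 and 51.8 with JT003 on CCl4. It was higher with JT003 on HFD, with a log2 ratio of 0.33 (0.23 to 0.43), and level on CCl4, with 0.01 (-0.11 to 0.13). Prkaa1 had 326, 298 and 331 counts in the diet model and 159, 277 and 236 in the CCl4 model. The Corn oil library was its lowest, and CCl4 was above it by 0.48 (0.20 to 0.77). With JT003 the log2 ratios of Prkaa1 were 0.13 (-0.10 to 0.36) and -0.25 (-0.51 to 0.01), whose intervals hold 0. The ratio of Prkaa1 to Prkaa2 did not differ with JT003 beyond counting error in either model, with log2 differences of -0.20 (-0.45 to 0.04) and -0.26 (-0.54 to 0.02). Against the further CCl4 reads it was lower with JT003, by -0.44 (-0.69 to -0.20).

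Stk11 was 88.7, 74.7 and 69.6 scaled CPM in SD, HFD and HFD plus JT003, and 119, 92.2 and 87.0 in Corn oil, CCl4 and CCl4 plus JT003. In both models the control was the highest. The log2 ratio was -0.25 (-0.35 to -0.15) with HFD and -0.37 (-0.46 to -0.28) with CCl4. With SD in place of Corn oil the latter was 0.06, so the lower level in the CCl4 library rests on the Corn oil control. With JT003 the log2 ratio of Stk11 was -0.10 (-0.21 to 0.00) and -0.08 (-0.18 to 0.01), within counting error.

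Sirt1, an NAD-dependent deacetylase that works with AMPK, had 209 counts in SD, 229 in HFD, 278 in HFD plus JT003, 140 in Corn oil, 146 in CCl4 and 233 with JT003 on CCl4. The JT003 library was the highest of each model. The log2 ratio with JT003 was 0.65 (0.35 to 0.96) on CCl4, which is 1.57-fold, and 0.26 on HFD with an interval from just under 0 to 0.52. Against the further CCl4 reads of the pooled column the ratio of Sirt1 was 0.20 (-0.04 to 0.43), so the call rests on the CCl4 library. Against its controls Sirt1 was within counting error, at 0.04 (-0.24 to 0.32) with HFD and -0.25 (-0.60 to 0.09) with CCl4.

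Ppara had 10866 counts in SD, 9889 in HFD, 12188 in HFD plus JT003, 5243 in Corn oil, 5219 in CCl4 and 5466 with JT003 on CCl4. All 3 libraries of the CCl4 model lay below all 3 of the diet model. The log2 ratio was -0.23 (-0.27 to -0.19) with HFD, 0.28 (0.24 to 0.32) with JT003 on HFD, -0.33 (-0.38 to -0.27) with CCl4 and 0.05 (-0.01 to 0.10) with JT003 on CCl4. The lower level in the CCl4 library rests largely on the TMM factors, as its FPKM was 35.1 against 36.5 in Corn oil. Scaled to total counts, CCl4 plus JT003 over Corn oil turned from -0.28 to 0.06. The transcripts that PPARα is known to activate differed far more than its own. Of 17 such genes, 15 were lower by at least 1.5-fold with HFD, where 10.2% of all genes were lower by that much, and 6 were higher with JT003 on HFD, where 7.17% of all genes were higher. Among them Ehhadh, which encodes a peroxisomal oxidation enzyme, had 161285 counts in SD, 6754 in HFD and 15107 with JT003 on HFD. The 2 controls differed in these targets as well, with 48808 counts of Ehhadh in Corn oil. In Corn oil 8 of the 17 were lower than in SD and 0 higher, where 16.1% of all genes were lower and 14.7% higher. With CCl4, 7 were lower and 2 higher, where 13.5% of all genes were lower and 15.7% higher. With JT003 on CCl4, 2 were lower and 1 higher, near the 11.2% and 13.0% of all genes. The latter count turned with the further CCl4 reads, against which 6 targets were higher with JT003 and 1 lower, where 8.42% of all genes were higher and 14.3% lower. Those higher were Acot1, Acaa1b, Cyp4a14, Cyp4a10 and, named after their values were seen, Vnn1 and Fabp1, at log2 ratios of 0.73 to 1.48, and Plin2 was lower at -0.61. The further reads over Corn oil had 11 targets lower and 1 higher, where 12.3% of all genes were lower and 20.4% higher.

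Cdh13 had few counts, with 63 in SD, 56 in HFD, 85 in HFD plus JT003, 40 in Corn oil, 15 in CCl4 and 21 with JT003 on CCl4. The 2 libraries of mice given CCl4 were the lowest. The log2 ratio of CCl4 over Corn oil was -1.60 (-2.70 to -0.85), which is 3.03-fold, and that of CCl4 plus JT003 over Corn oil was -1.19 (-2.10 to -0.47). With JT003 it was 0.42 (-0.56 to 1.53) on CCl4, too few counts to tell a difference in either direction. T-cadherin is made by endothelial cells, and their markers moved with it. The summed level of 8 endothelial markers was 310.0 in SD, 293 in HFD, 345 in HFD plus JT003, 191 in Corn oil, 106 in CCl4 and 144 with JT003 on CCl4, with none at 0 in any library. Kdr, the main receptor for VEGF, had 320 counts in Corn oil and 153 in CCl4, and Lyve1, a sinusoidal marker, had 138 and 141. On scaled levels the log2 ratio of CCl4 over Corn oil was -1.37 for Kdr and -0.28 for Lyve1. The part of endothelial cells in the Cdh13 result was not tested.

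**Figure D4:**
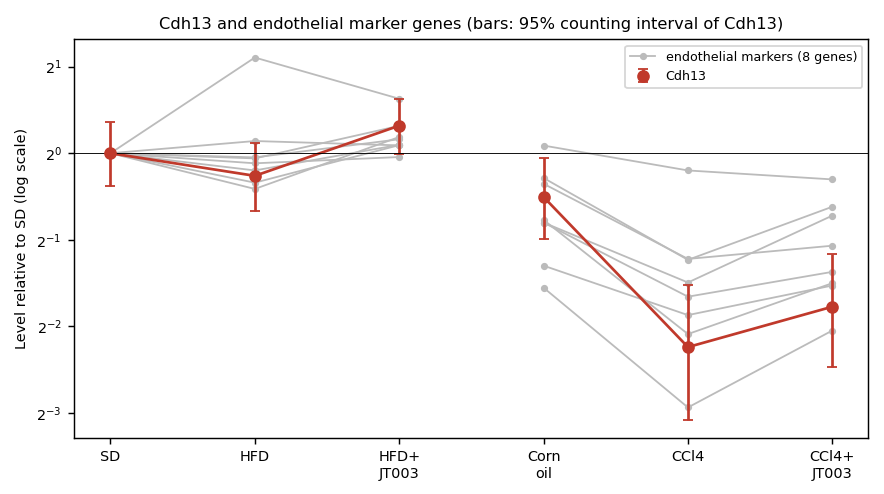
Level of Cdh13 (red, with 95% counting intervals) and of 8 endothelial marker genes (grey) relative to SD, on a log axis, in the 6 libraries. Cdh13 and the markers other than Lyve1 are below SD in all 3 libraries of the CCl4 model.

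The genes whose levels followed a gene of the set most closely over the 6 libraries were found among 8326 genes with at least 100 counts in each, by the root mean square difference of centred log2 levels. Nearest to Adipor2 were Yap1, the Hippo pathway coactivator, at 0.05, Atp2a2, the calcium pump of the endoplasmic reticulum, at 0.06 and Vps8 at 0.07. Nearest to Adipor1 were Vars2 at 0.03 and Sfr1 and Asb8 at 0.04. Ppara was followed by Chst15 at 0.08 and by Apob and Kif13a at 0.10. Nearest to Cdh13 were Oit3 and Dnase1l3 at 0.22 and Fcna at 0.23, less close than the neighbours of the other 3 genes. Over 6 libraries such likeness is a description.

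A deposited comparison table gave a further view of CCl4 liver, because its CCl4 column appears to pool the CCl4 library with others that are not named, at 2.97 times the total of that library. This is inferred from the values, since 24 genes alone were below their count in the CCl4 library, by 0.99 at most. Subtracting the CCl4 library left the rest of the pool, which is taken here as other CCl4 reads. This use was chosen after seeing the data. The rest differed from the CCl4 library by at least 1.5-fold in 15.5% of 14543 genes and in 0 genes of the set.

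Against the rest of the pool the Adipor2 difference with JT003 was not seen. The rest was lower than the CCl4 library in Adipor2 by a log2 ratio of -0.43 (-0.47 to -0.40), and CCl4 plus JT003 over the rest was 0.02 (-0.02 to 0.06). Sirt1 was higher in the rest than in the CCl4 library by 0.45 (0.18 to 0.74), and its ratio with JT003 was 0.20 (-0.04 to 0.43) against the rest. Stk11 turned from -0.08 against the CCl4 library to 0.35 (0.26 to 0.43) against the rest. Prkaa2 at 0.19 (0.08 to 0.30), Ppara at 0.24 (0.19 to 0.29) and Prkaa1 at -0.25 (-0.48 to -0.03) had intervals without 0 against the rest, which held 0 against the CCl4 library. The adaptors kept their order, with Appl2 at 0.19 (0.01 to 0.38) and Appl1 at -0.78 (-1.00 to -0.57), and Appl1 was then the gene past 1.5-fold. Over Corn oil the rest was lower in Stk11 by -0.80 (-0.88 to -0.72), in Ppara by -0.52 (-0.57 to -0.47) and in Cdh13 by -1.39 (-2.18 to -0.81), the directions seen with the CCl4 library, and Appl1 was higher by 0.63 (0.41 to 0.87). No such second set of reads was used for the diet model, so the Adipor2 difference there has no counterpart of this check.

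**Figure D5:**
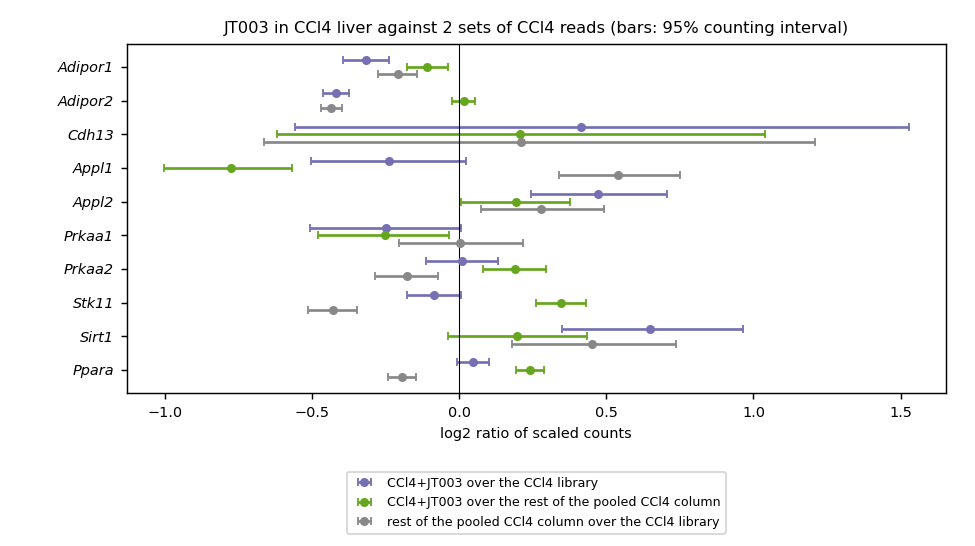
Log2 ratio (horizontal axis) of CCl4 plus JT003 over the CCl4 library, of CCl4 plus JT003 over the rest of the pooled CCl4 column and of the rest over the CCl4 library, for the 10 genes with 95% counting intervals. For Adipor2 the JT003 ratio is -0.42 against the CCl4 library and 0.02 against the rest.

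The wider pathway was followed in 10 lists of 103 genes. Of the 97 to 99 with enough counts, 10 were higher and 23 lower by at least 1.5-fold with HFD, which is 34.0% against 23.7% of all genes, and 13 were higher and 4 lower with JT003 on HFD, which is 17.3% against 14.4%. With CCl4, 15 were higher and 20 lower, which is 35.4% against 29.2%, and with JT003 on CCl4, 13 were higher and 10 lower, which is 23.2% against 24.2%. With JT003 the shares were thus near those of all genes. The PPARα targets alone held 15 of the 23 genes lower with HFD and 6 of the 13 higher with JT003 on HFD. The higher share with HFD was thus not spread evenly over the lists. Against the rest of the pool 17 list genes were higher and 8 lower with JT003, which is 24.5% against 22.7%. The AMPK complex and its upstream kinases are short lists, in which the shares of all genes would amount to few calls. Of the 5 AMPK β and γ subunit genes 4 had enough counts, and 0 of them passed 1.5-fold with HFD, with CCl4 or with JT003 on CCl4. With JT003 on HFD, Prkag3 was past it on 0 and 13 counts. Of 7 genes of upstream kinases and LKB1 partners, 1 passed in these 4 comparisons. It was Strada, a partner of LKB1 named after its values were seen, with 73 counts in CCl4 and 118 with JT003 on CCl4. Against the rest of the pool its log2 ratio was 0.48 (0.14 to 0.83), short of 1.5-fold.

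Among 12 AMPK substrates and regulators, the acetyl-CoA carboxylases held the largest log2 ratios with HFD and with CCl4. Acacb, the mitochondrial form that restrains fatty acid oxidation, had 2806 counts in SD, 624 in HFD and 487 with JT003 on HFD. Its log2 ratio was -2.26 (-2.39 to -2.13) with HFD and -0.38 (-0.55 to -0.21) with JT003. Acaca, the cytosolic form that feeds fatty acid synthesis, had 1322, 1041 and 1614 counts in the diet model and 709, 3026 and 1601 in the CCl4 model. Its log2 ratio was 1.77 (1.66 to 1.90) with CCl4. Fnip2, a folliculin partner that binds AMPK, had 303, 881 and 1192 counts in the diet model, with 1.44 (1.26 to 1.64) for HFD over SD.

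The NAD salvage enzyme Nampt, which makes the cofactor of Sirt1, was higher with JT003 in both models. It had 511 counts in SD, 1434 in HFD, 2928 in HFD plus JT003, 686 in Corn oil, 547 in CCl4 and 2297 with JT003 on CCl4. Both JT003 libraries were above all 4 others. The log2 ratio was 1.39 (1.25 to 1.55) with HFD, 1.01 (0.92 to 1.10) with JT003 on HFD and 2.05 (1.92 to 2.19) with JT003 on CCl4. Against the rest of the pooled CCl4 column it was 1.69 (1.60 to 1.79), so the Nampt difference was seen there too. Of the 6 other sirtuin genes, Sirt4 alone, named after its value was seen, was past 1.5-fold with HFD, at 0.78 (0.41 to 1.18). The share of all genes past it was 23.7%. Nnmt, which consumes nicotinamide, had 3957, 2061 and 1189 counts in the diet model and 5779, 1818 and 4482 in the CCl4 model, lower with both injuries.

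Relatives of the receptors also differed. Paqr9, an abundant liver member of the same membrane family, had 12657 counts in SD, 4437 in HFD and 5030 with JT003 on HFD, with -1.60 (-1.65 to -1.55) for HFD over SD. It had 5285, 4925 and 3401 counts in Corn oil, CCl4 and CCl4 plus JT003. Paqr3 had 145, 76 and 78 counts in the diet model and 48 in Corn oil. The log2 ratio of Paqr3 was -1.00 for HFD over SD and -1.41 for Corn oil over SD. That of Paqr9 for Corn oil over SD was -1.11. Mmd2 was lower with JT003 in both models, from 65 to 28 counts on HFD and from 304 to 127 on CCl4, with log2 ratios of -1.18 (-1.93 to -0.58) and -1.26 (-1.59 to -0.97). Against the rest of the pooled CCl4 column the ratio of Mmd2 was -1.70 (-2.00 to -1.45).

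In the list of PPAR and RXR receptors, Pparg, the lipid-storing relative of Ppara, had 100 counts in SD, 275 in HFD and 248 with JT003 on HFD, with 1.35 (1.03 to 1.71) for HFD over SD. Nrip1, a corepressor of nuclear receptors, had 15 counts in Corn oil and 75 in CCl4, against 130 to 160 in the diet model. Of 7 genes of PGC-1 and FOXO partners, 0 passed 1.5-fold with HFD or with JT003 on HFD. The shares of all genes were 23.7% and 14.4%, few calls in so short a list. With CCl4, 2 of the 7 were lower and 0 higher, where 13.5% and 15.7% of all genes were. Of these, Ppargc1b, a PGC-1 coactivator, was lower by a log2 ratio of -1.60 (-2.03 to -1.23). In the PI3K-Akt list of 10 genes, Irs2, an insulin receptor substrate, was lower with HFD by -1.44 (-1.68 to -1.23) and Pik3r1, a regulatory subunit of PI3K, was higher by 1.35 (1.23 to 1.48). Neither differed beyond counting error with JT003 on HFD, at -0.13 (-0.41 to 0.14) and -0.05 (-0.14 to 0.04). The 2 controls differed more in Irs2 than HFD and SD did, at -2.02 for Corn oil over SD.

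The receptors are known for ceramidase activity, and 17 genes of ceramide metabolism were listed for that reason. Of the 16 with enough counts, 4 were higher and 2 lower by at least 1.5-fold with HFD, where 13.5% of all genes were higher and 10.2% lower. With CCl4 6 of 16 were higher and 3 lower, where 15.7% and 13.5% of all genes were. With JT003 on HFD 1 of 16 was higher and 2 lower, against 7.17% and 7.21% of all genes, and with JT003 on CCl4 3 of 17 were higher and 1 lower, against 13.0% and 11.2%. Against the rest of the pool the last count was 1 higher and 2 lower. Cers6, a ceramide synthase, had 85, 187 and 252 counts in the diet model and 26, 121 and 112 in the CCl4 model. It was higher with HFD by 1.03 (0.67 to 1.43) and with CCl4 by 1.83 (1.28 to 2.57). Cers6 was also lower in Corn oil than in SD, at -1.50, so the size of the ratio with CCl4 rests on the Corn oil control. Sphk2, a sphingosine kinase, was lower with HFD by -1.01 (-1.11 to -0.91), with 2326 and 1228 counts.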

How the data were processed

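Total liver RNA was sequenced on a BGISEQ-500, and 1 table per library was used. The authors deposited for each gene an expected count, the estimated reads without normalization, and an FPKM value, scaled by them to transcript length and library reads. The length column is the authors' transcript length in bases. The submitters' processing notes name HISAT, Bowtie2, RSEM and mm9, with no versions. As the reference at hand was GRCm38, no coordinates were taken from the files. Of 4 deposited comparison tables, 3 were not used, and 7 expression columns of these tables were left out. Their fold changes, p-values and adjusted p-values are the authors' own results. The pooled expected counts that the authors headed CCl4 were used as an alternative.

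Expected counts were rounded. Library sizes were scaled by TMM over 6 libraries (edgeR 4.0.16, R 4.3.3). Log2 ratios had a prior count of 2, Clopper-Pearson 95% intervals (scipy 1.17.1) and a minimum of 10 counts in 1 of the 2 libraries. Intervals of levels are exact Poisson intervals. Intervals cover counting error only, as reads are not independent molecules where molecular identifiers are lacking. Intervals of FPKM ratios combine the counting errors of both genes. Past 1.5-fold counted as different, in 7 comparisons, with Python 3.11.15, numpy 2.4.6, pandas 2.3.3 and matplotlib 3.10.9. The steps were tested on simulated data. Genes named are the 10 members, list genes at least 2-fold different in any comparison, and the 3 nearest genes of 4 members. A list gene that met this rule is not reported here. Members and lists were chosen with earlier results of these data known. Alternatives were total counts, DESeq2 1.42.0 size factors, TMM per model, FPKM plus 0.1 or 1, prior count 0.5, at least 100 counts, no filter, the pooled column, and, added after seeing the data, its rest and the SD control.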

Additional observations from a re-analysis of the deposited data

Results flagged for a closer look

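JT003 was set against the untreated library in 2 models, and log2 ratios of opposite sign with intervals apart from 0 in both were found for Adipor1 of the set and, at 1.5-fold or more in both models, for 4 genes of the lists. The difference between the models was not tested, with 1 library per condition. The share of all genes with such ratios is not given, so these counts show nothing particular to the set or the lists. Adipor1 was 0.20 in the diet model and -0.32 in the CCl4 model, and against the rest of the pooled CCl4 column -0.11. Acaca was 0.61 and -0.94, and -0.57 against the rest. Nnmt was -0.82 and 1.28, and 0.60 against the rest. Fgf21, a liver hormone under PPARα, was 1.44 and -1.35, and -0.56 against the rest. Acer2, an alkaline ceramidase, was -0.76 and 0.68, and -0.45 against the rest, so that the opposite sign was lost for this gene.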

How the results depend on the processing

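Counts of the 10 genes past 1.5-fold did not move with DESeq2 size factors, TMM per model, a prior count of 0.5 or no filter, in any comparison for which each was run. HFD plus JT003 over SD went from 0 to 1 gene (Appl2) with total counts and with FPKM plus 0.1 or 1. CCl4 over Corn oil went from 1 to 2 with total counts and FPKM plus 0.1 (adding Prkaa1), to 0 with FPKM plus 1 or at least 100 counts, to 2 with the pooled column (adding Stk11) and to 3 with its rest (Cdh13, Appl1, Stk11) or with SD as control (Cdh13, Sirt1, Ppara). CCl4 plus JT003 over CCl4 went from 1 to 0 with FPKM plus 1, and with the pooled column or its rest the 1 gene was Appl1 and not Sirt1. CCl4 plus JT003 over Corn oil went from 1 to 4 with total counts and FPKM plus 0.1 (adding Appl2, Prkaa2 and Sirt1), to 0 with FPKM plus 1 or at least 100 counts, and to 4 with SD as control (Adipor2, Cdh13, Prkaa1, Ppara). Total counts shifted the median log2 ratio of all genes to 0.13 for HFD over SD, 0.24 for CCl4 over Corn oil and 0.32 for CCl4 plus JT003 over Corn oil, and changed the sign of 11 of 70 ratios of the set, such as Appl2 (0.05) and Sirt1 (0.01) for CCl4 over Corn oil. With counts divided by length in place of FPKM the ratios of related genes stayed within their counting intervals. With the rest of the pooled column the difference of log2 Adipor1 to Adipor2 with JT003 on CCl4 reversed from 0.11 to -0.12. No paired analysis was possible because each condition has 1 library. Depth limits Cdh13 most, at 15 to 85 counts.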
